A study of Mus musculus with 208 samples.

Results

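A large intron of Sfmbt2, a Polycomb group gene on mouse chromosome 2, holds many near-copies of 4 microRNA families, Mir467, Mir669, Mir466 and Mir297. Its microRNAs were examined in the striatum of Htt CAG knock-in mice. A feature was taken as a member when its annotated start and end lay within a 60 kb stretch of the plus strand around this intron, and 68 of the 1626 features in the count table met that rule. The stretch was selected on the measured slopes of its microRNAs on CAG length at 6 and 10 months (6m and 10m) in these same libraries, which were positive, so the values at those ages are given below as a description and carry no test. The 2 month (2m) libraries and the wild type (WT) mice of the other lines were not used in that choice and were tested. The comparisons of Q20 with WT and of the sexes were tested as well. At 6m and 10m these used libraries that also entered the choice, as did the test over the WT groups through WT of the Q20 line.

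Small RNA libraries were made from the striatum of 208 single mice in 26 groups of 8. The mice were labelled C57BL/6, and the knock-in mice were heterozygous, with 1 WT Htt allele and 1 allele that held human HTT exon 1, each line being named for its CAG length (Q). Sampling at 2, 6 and 10 months covered Q20 and the expanded lines Q80, Q92, Q111, Q140 and Q175, with WT littermates of the Q20 line at every age. At 6m it also covered WT mice labelled as housed with each of the other 5 lines, called WT of that line below. The labels do not say whether these were littermates. Each repeat length was a line of its own, and Q175 arose by spontaneous expansion within the Q140 model, so CAG length and line cannot be told apart for any single line. The knock-in allele is driven by the Htt promoter itself, and the mice without an expanded repeat, Q20 and WT of the Q20 line, served as controls at each age. Totals ran from 2755347 to 7965446 counts per library with a median of 4615866, and 4 libraries that stood apart from the rest of their age were left out of the fits and of the group values below. Brain RNA was present in the 204 libraries kept. In them the 8 measured of 9 listed brain microRNAs (Mir9, Mir124a, Mir128 and Mir132) summed to between 54679 and 81645 CPM (counts scaled to library size with TMM normalization). The 13 measured of 14 listed microRNAs of liver, of muscle, and of epithelium and olfactory bulb summed to 270.6 to 2558 CPM. No other brain region was compared.

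MicroRNAs are short RNAs cut from hairpin precursors that guide Argonaute proteins to partly complementary messenger RNAs, mostly through the seed near their 5′ end. The Sfmbt2 intron cluster is a rodent-specific array of near-copies whose hairpins derive from simple sequence repeats, and it is best known from the placenta, where Sfmbt2 is imprinted and its microRNAs are abundant. Because the hairpins resemble one another, a short read can match several of them, and a level assigned to 1 hairpin depends on how shared reads were divided.

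The members began at base 10465287 and ended at base 10518279 of chromosome 2 (GRCm38, plus strand), a span of 52.99 kb. All 68 lay inside a single intron of 62472 bases (chr2:10461473-10523944) in 2 protein-coding transcripts of Sfmbt2, and 0 of them overlapped an exon of the gene. By name, 17 members belonged to Mir466, 5 to Mir467, 17 to Mir669 and 5 to Mir297, while 24 carried only a provisional Gm symbol. The members are hairpin features, and the RefSeq table used here held a mature sequence for 0 of the 68. It held one for 8 microRNAs of the same families that are encoded elsewhere in the genome. Of these, 5 are printed to show the simple repeats that make reads hard to place and how sequences under 1 family name can differ, 5′ to 3′ with the seed (bases 2 to 8) in capitals, from RefSeq on GRCm38.p6.
Mir466q (chr3:28419988-28420007, plus strand): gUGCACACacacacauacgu
Mir466k (chr3:85467396-85467418, plus strand): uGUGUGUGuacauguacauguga
Mir467f (chr11:69635419-69635439, minus strand): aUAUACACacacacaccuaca
Mir467h (chr9:115381898-115381919, plus strand): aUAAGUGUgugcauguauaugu
Mir669n (chr3:115979905-115979924, plus strand): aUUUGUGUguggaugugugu
The Mir466q and Mir467f sequences both run into alternating A and C after different seeds, with 70% and 85.71% of their bases A or C. Mir466k and Mir467h carry the same family names but are made of U or G for 69.57% and 68.18% of their length, and Mir669n for 90%. A family name thus does not stand for 1 base composition or 1 seed.

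Members were low in abundance. The whole cluster took 0.00846% of all counts, with a mean of 410.9 counts per library and a range of 62.09 to 1021. Mir467 held 46.95% of the cluster's counts, Mir669 32.07%, Mir466 16.04%, Mir297 3.04% and the Gm features 1.90%. Of the 68 members 41 averaged under 1 count and 9 averaged at least 10, and these 9 together held 79.72% of the cluster. The 20 members that passed the filter on low counts were the ones fitted. Passing needed an adequate count in only 1 group's worth of libraries, so a member could pass through the mice in which it was high. Of the cluster's counts 78.84% were fractional values against 56.81% of all counts in the table, where a value counts as fractional if any part of it is not whole, so these shares do not give the number of reads that were divided. Sums over a family or over the cluster do not depend on how reads were divided among their own members and are therefore given first. They can still depend on how reads were divided between members and features outside the sum, as for Mir669a-2 below.

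Among members, Mir467a-1 (ENSMUST00000102207, chr2:10476346-10476418) had the highest mean, 86.39 counts. It was followed by Mir669c (ENSMUST00000084675, chr2:10509296-10509404) with a mean of 65.09 counts and Mir467d (ENSMUST00000103833, chr2:10507630-10507714) with 55.15. Mir467e (ENSMUST00000103760, chr2:10505721-10505807) averaged 34.37 counts and Mir669o (ENSMUST00000103898, chr2:10514300-10514395) 22.42. The remaining 4 above the threshold were Mir466d (ENSMUST00000104837, chr2:10511967-10512062) at 20.96, Mir467c (ENSMUST00000103861, chr2:10473931-10474027) at 16.25, Mir466g (ENSMUST00000104831, chr2:10514595-10514674) at 14.84 and Mir669a-2 (ENSMUST00000102060, chr2:10510164-10510260) at 12.1. Just under it came Mir669d-2 with a mean of 7.84 counts, Mir466f-2 with 7.74, Mir466b-2 with 7.49, Gm25943 with 7.27, Mir669f with 6.25 and Mir297a-4 with 5.54. Values of Mir467a-1, Mir467d, Mir669o and Mir669a-2 were fractional in every library, whereas those of Mir466g were fractional in 1.44% of libraries.

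The cluster as a whole stood higher with longer CAG repeats at 6m and 10m and differed little between genotypes at 2m. At 6m its summed level in the 16 control libraries ran from 46.04 to 70.51 CPM with a median of 61.77. Q80 gave 54.34, 60.12 and 68.09 CPM (lowest, median and highest of 7 libraries), and Q92 gave 53.96, 63.83 and 75.55. These 2 lines lay within or next to the control range, with 0 of 7 and 2 of 8 libraries above every control. Q111 ran from 69.28 to 93.86 CPM with a median of 83.27, and 7 of 8 libraries lay above every control. Q140 ran from 92.21 to 142.7 CPM around a median of 124.5. Q175 ran from 140.5 to 183.3 CPM around a median of 164.7. All 8 libraries of Q140 and all 8 of Q175 stood above every control, and at this age only their extremes met each other, the highest Q140 library at 142.7 against the lowest Q175 library at 140.5.

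At 10m the 15 controls ran from 45.25 to 74.17 CPM with a median of 53.96. Q80 gave 48.88, 52.09 and 61.74 CPM and Q92 51.95, 57.22 and 74.65, so that 0 and 1 of 8 libraries exceeded every control. Q111 had moved clear of the controls, with 99.25, 106.8 and 118 CPM. Q140 gave 116.9, 138.4 and 153.1 CPM and Q175 129.5, 152.7 and 180.6. All 24 libraries of these 3 lines lay above every control, and Q140 and Q175 overlapped over most of their range.

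**Figure D1:**
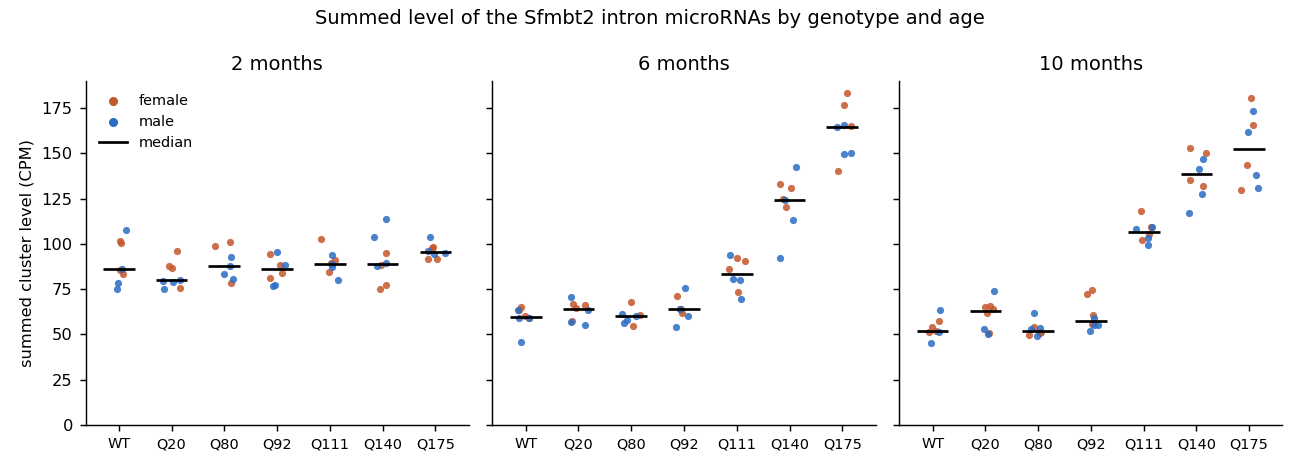
Summed level of the 68 members (CPM, vertical axis) in each library by genotype (horizontal axis) at 2, 6 and 10 months, coloured by sex, with a bar at each group's median. At 6m the medians run from 59.65 CPM in WT to 164.7 in Q175, while at 2m every group lies between 74.91 and 113.6 CPM.

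Relative to the controls, the cluster sum at 6m was higher by 0.47 ± 0.06 log2 (SE) in Q111, 1.02 ± 0.06 in Q140 and 1.46 ± 0.05 in Q175, or 1.39, 2.03 and 2.75 times the control level. At 10m the differences were 0.96 ± 0.07 log2 in Q111, 1.35 ± 0.07 in Q140 and 1.49 ± 0.07 in Q175, or 1.95, 2.55 and 2.81 times. Q80 differed by 0.01 ± 0.06 log2 at 6m and -0.06 ± 0.07 at 10m, and Q92 by 0.04 ± 0.06 and 0.17 ± 0.07. Between the ages the difference moved from 0.47 to 0.96 log2 in Q111 and from 1.46 to 1.49 in Q175, and a change with age was not tested. With CAG length as a numeric variable, the slope of the cluster sum was 0.88 ± 0.07 log2 per 100 CAG repeats at 6m and 1.03 ± 0.09 at 10m. In bulk striatum, more cells that carry a microRNA and more of it per cell cannot be told apart.

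The rise at 6m could be read against the WT mice housed with each line. These comparisons share the knock-in libraries with the choice of members and are again a description. Against WT of the same line the cluster sum differed by 0.03 ± 0.07 log2 in Q20, 0.02 ± 0.08 in Q80 and 0.02 ± 0.07 in Q92. It was higher by 0.46 ± 0.07 in Q111, 1.07 ± 0.07 in Q140 and 1.51 ± 0.07 in Q175. The 47 WT libraries of all 6 lines ran from 41.58 to 77.72 CPM with a median of 61.41, and group means lay between 58.93 and 63.87. With all WT libraries added to the controls, 6 of 8 Q111 libraries, 8 of 8 Q140 and 8 of 8 Q175 stood above every one of them.

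**Figure D2:**
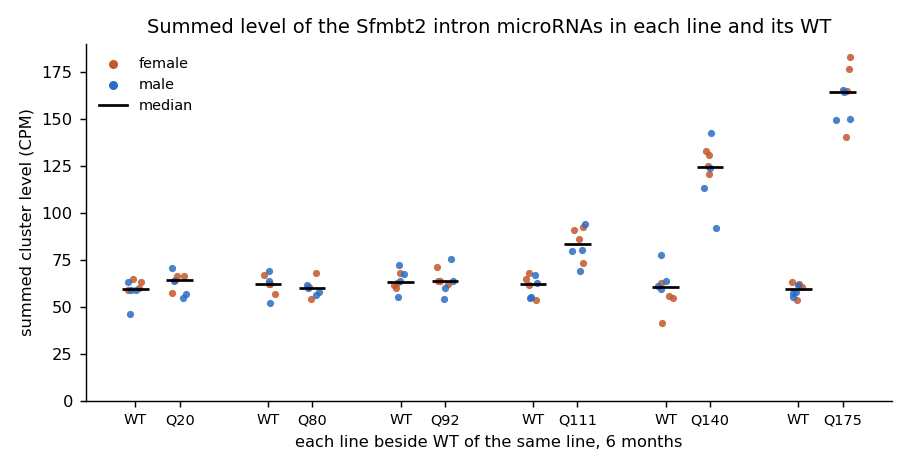
Summed level of the cluster at 6m (CPM, vertical axis) in each knock-in line and in the WT mice housed with it (horizontal axis), 1 point per library coloured by sex, with a bar at each median. WT libraries of the 6 lines fill the same band from 41.58 to 77.72 CPM, and only Q111, Q140 and Q175 depart from it.

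The WT groups gave a test of differences between lines without a knock-in allele. The cluster sum did not pass it (edgeR quasi-likelihood F-test over the 6 WT groups, adjusted p = 0.9152), although 27.3% of all 477 tested microRNAs did. A single member passed, Mir669a-2 (adjusted p = 0.0007415), whose reads were divided unevenly between libraries as described further on. Q20 against WT of the same line served as the background of a knock-in without an expanded repeat. The cluster sum differed by -0.10 ± 0.07 log2 at 2m (adjusted p = 1), 0.04 ± 0.07 at 6m (adjusted p = 0.9767) and 0.15 ± 0.08 at 10m (adjusted p = 0.7743). Of the 20 fitted members 0 passed at each age in edgeR's quasi-likelihood F-test, with 2, 1 and 1 at an unadjusted p under 0.05 and 0, 1 and 0 passing in DESeq2. The background over all tested microRNAs was 0% passing at each age in edgeR, with 27, 18 and 31 of 477 at an unadjusted p under 0.05.

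At 2m, an age that did not enter the choice of members, no line's difference in the cluster sum passed the test. The 16 controls ran from 74.91 to 107.8 CPM with a median of 84.47, and Q175 from 91.5 to 103.9 with a median of 95.56. Q175 was therefore inside the control range in 8 of 8 libraries while its lowest library lay above the control median. The Q175 difference was 0.18 ± 0.06 log2 (edgeR quasi-likelihood F-test, adjusted p = 0.2763). The differences of Q80, Q92, Q111 and Q140 lay between 0.02 and 0.11 log2 (adjusted p from 0.6246 to 0.9572). Before adjustment, p in this edgeR test was 0.006274 for Q175 and from 0.08719 to 0.7411 for the other lines. The slope was 0.10 ± 0.03 log2 per 100 CAG repeats. It did not pass after adjustment over all microRNAs tested with edgeR (unadjusted p = 0.004483, adjusted p = 0.2686). The Mir467 sum had a slope of 0.11 ± 0.03 (edgeR unadjusted p = 0.002199, adjusted p = 0.2032). The sums of Mir669, Mir466 and Mir297 had slopes of 0.11 ± 0.07, 0.10 ± 0.06 and 0.11 ± 0.09. Their edgeR p was 0.1516, 0.1144 and 0.2371 unadjusted, and 0.7414, 0.7388 and 0.8005 adjusted. Of the 20 fitted members 0 passed the slope test at 2m with edgeR, beside a background of 0%, and 0 passed in DESeq2. An unadjusted p under 0.05 in edgeR was reached by 3 of the 20 members and by 36 of all 477 tested microRNAs. The fitted slope was positive in 17 of 20, with a median of 0.09 over members against 0.00 over all microRNAs tested. In the line comparisons at 2m, 0 members passed in edgeR or in DESeq2 for any line. In edgeR 4 of 20 members reached an unadjusted p under 0.05 in Q175, 1 in Q92 and 0 in Q80, Q111 and Q140. Of all 477 tested microRNAs, 33 did so in Q175, 45 in Q92, 34 in Q80, 66 in Q111 and 36 in Q140. Over all 477 tested microRNAs, the share called was 0% in Q80, Q92 and Q140. In Q111 15 were called, 7 higher (1.47%) and 8 lower, and in Q175 1 was called, which was higher (0.21%).

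The sexes did not differ detectably in the cluster sum. Sex was taken from the labels. In a library of Q80 at 2m and another of Q20 at 10m it differed from that of the other mice with the same cage code. Males minus females gave -0.02 ± 0.04 log2 at 2m, -0.11 ± 0.08 at 6m and -0.08 ± 0.09 at 10m (edgeR adjusted p of 0.8894, 0.6507 and 0.9598). Of the 20 members 0 differed by sex at any age in edgeR or DESeq2, beside backgrounds of 0.629%, 0.629% and 0.419% passing in edgeR. An unadjusted p under 0.05 in edgeR was reached by 0, 0 and 2 members and by 50, 42 and 30 of all 477 tested microRNAs. The slope on CAG length in males minus that in females was 0.14 ± 0.07 log2 per 100 repeats at 2m (edgeR adjusted p = 0.9995). For this term at 2m 0 members passed in either tool, beside a background of 0% in edgeR. An unadjusted p under 0.05 in edgeR was reached by 2 members and by 20 of all 477 tested microRNAs. The same difference was 0.06 ± 0.13 at 6m and 0.02 ± 0.16 at 10m, given as a description.

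Controls were higher at 2m than at the later ages. Their mean cluster sum was 86.19 ± 10.22 CPM (SD, n = 16) at 2m, 60.99 ± 5.76 (n = 16) at 6m and 57.29 ± 8 (n = 15) at 10m. Library tags were shared between ages only in part (L1 occurred at 2m and 10m), and the difference between ages was not tested. Q175 libraries at 6m and 10m lay above the 2m controls as well, with lowest libraries of 140.5 and 129.5 CPM against a highest 2m control of 107.8.

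Within the cluster, Mir467 had the highest counts and larger fitted slopes than Mir669 and Mir466 at 6m and 10m, a difference that was not tested. The Mir467 sum at 6m ran from 22.88 to 32.13 CPM in controls (median 28.15), from 32.66 to 44.28 in Q111 (median 40.14), from 45.41 to 70.34 in Q140 (median 60.94) and from 71.23 to 100.5 in Q175 (median 88.59). All 24 libraries of these 3 lines were above every control, and none of the Q175 libraries overlapped Q140. At 10m controls ran from 16.33 to 26.55 CPM (median 21.39), Q111 from 44.11 to 56.05 (median 48.5), Q140 from 50.5 to 77.83 (median 66.01) and Q175 from 60.51 to 88.46 (median 70.29). Again all 24 stood clear of the controls, but Q140 and Q175 now overlapped. The slope was 1.02 ± 0.08 log2 per 100 repeats at 6m and 1.21 ± 0.10 at 10m, and the level in Q175 was 3.27 and 3.36 times that of the controls.

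The Mir669 sum ran from 14.46 to 25.89 CPM in controls at 6m (median 21.01), with Q111 at a median of 26.77, Q140 at 39.55 and Q175 at 49.9. In the 10m set the controls had a median of 17.59 and reached 32.82 CPM, Q111 had a median of 32.12, Q140 41.66 and Q175 43.91. At both ages 8 of 8 libraries of Q140 and of Q175 exceeded every control. Q111 did so in 4 of 8 at 6m and 3 of 8 at 10m. The highest control at 10m was a Q20 library, while WT reached 19.37 CPM. In Q20 at 10m Mir669a-2 reached 14.47 CPM, and 2 libraries held the high Mir669a-2 values described further on. How far this uneven division of reads set the control range was not tested. The slopes of the Mir669 sum were 0.82 ± 0.07 and 0.98 ± 0.10.

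The Mir466 sum ran from 6.018 to 13.71 CPM in controls at 6m (median 10.12), with medians of 13.77 in Q111, 16.69 in Q140 and 18.41 in Q175. At 10m the controls reached 18.3 CPM around a median of 12.49, and the medians were 19.17 in Q111, 22.33 in Q140 and 25.79 in Q175. Q140 and Q175 lay above every control in 8 of 8 libraries at both ages, and Q111 in 4 of 8 at 6m and 5 of 8 at 10m. Slopes of 0.62 ± 0.07 and 0.79 ± 0.08 were the smallest of the 4 family sums.

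Mir297 gave few counts, 1 to 55.98 per library. Its sum ran from 0.637 to 2.363 CPM in controls at 6m (median 1.388) against 2.671 to 6.696 in Q175 (median 4.279), and 8 of 8 Q175 libraries exceeded every control. At 10m the controls ran from 1.44 to 3.325 CPM and Q175 from 4.518 to 9.904, again 8 of 8 above. Its slopes were 1.09 ± 0.13 at 6m and 1.04 ± 0.12 at 10m.

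**Figure D3:**
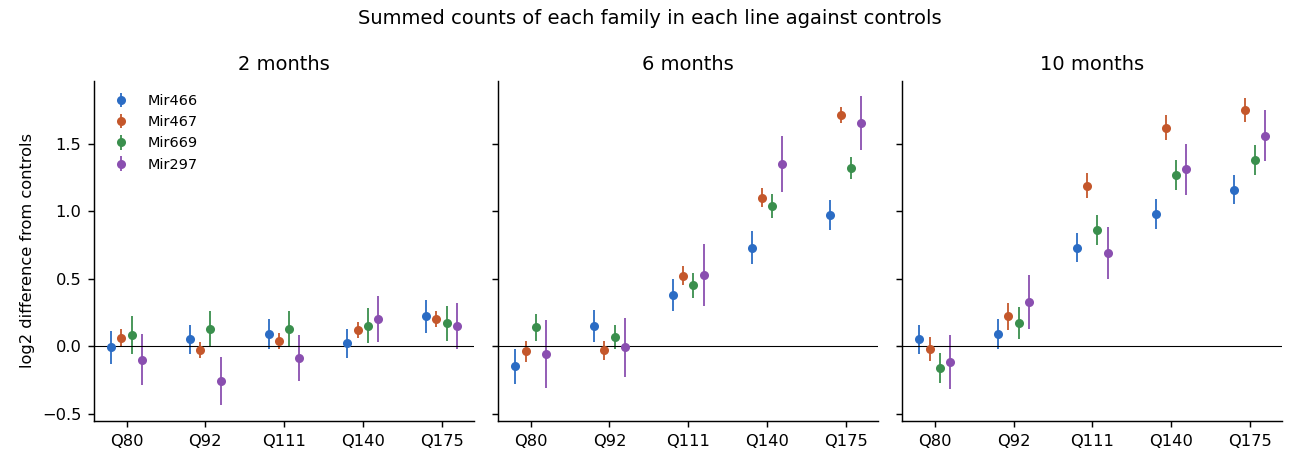
Difference of each family sum from the controls (log2, vertical axis, bars are SE) for the 5 expanded lines (horizontal axis) at 2, 6 and 10 months. In Q175 at 6m Mir467 reaches 1.71, Mir297 1.65, Mir669 1.32 and Mir466 0.97, and at 2m the sums stay close to 0.

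The make-up of the cluster shifted towards the 3 members with the highest mean count over all libraries. That ranking included the libraries in which they were high, so it favours members that rise. In 10m controls Mir467d had a median of 4.612 CPM, below the 5.227 of Mir467e. Mir467a-1, Mir669c and Mir467d together made up a median of 47.14% of the cluster in WT and 48.85% in Q20 at 6m against 60.12% in Q175. At 10m these shares were 36.19%, 35.55% and 51.23%. At 2m they were 49.6% in WT, 52.91% in Q20 and 51.32% in Q175, without the shift. The share of Mir466 fell from a median of 16.22% in WT to 11.19% in Q175 at 6m and from 23.36% to 17.13% at 10m, while its own level rose.

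Among single members, Mir467a-1 at 6m ran from 4.341 to 12.83 CPM in controls with a median of 10.27. Q111 gave 12.9, 16.86 and 21.67 CPM, Q140 18.77, 26.34 and 32.46, and Q175 33.3, 37.95 and 44.07. No library of these 3 lines overlapped a control, and Q175 did not overlap Q140. At 10m the controls ran from 6.843 to 13.1 CPM around 10.56, and the medians were 25.27 in Q111, 36.11 in Q140 and 38.12 in Q175, with 24 of 24 libraries clear of the controls. Differences from the controls were 0.77 ± 0.13, 1.37 ± 0.12 and 1.98 ± 0.11 log2 at 6m in Q111, Q140 and Q175, and 1.26 ± 0.11, 1.78 ± 0.11 and 1.91 ± 0.11 at 10m. At 2m Q175 gave 17.58 to 25.93 CPM against 15.12 to 21.48 in controls, and the slope of 0.12 ± 0.05 did not pass (edgeR adjusted p = 0.4075).

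Mir467d at 6m ran from 6.174 to 12.34 CPM in controls and from 22.36 to 30.14 in Q175, with 12.59 and 19.91 as the medians of Q111 and Q140. At 10m its controls were lower, from 2.958 to 7.203 CPM, and Q175 ran from 12.23 to 18.98. Controls and Q175 did not overlap at either age. Q175 was higher by 1.64 ± 0.09 log2 at 6m and 1.67 ± 0.15 at 10m. Mir467e rose by less, with a slope of 0.79 ± 0.09 at 6m and 0.93 ± 0.11 at 10m. Its controls ran from 3.363 to 8.33 CPM at 6m against 10.28 to 17.67 in Q175, and Q111 had 0 of 8 libraries above every control at 6m and 7 of 8 at 10m. Mir467c, with few counts, had slopes of 1.04 ± 0.12 and 1.38 ± 0.14.

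Mir669c was the steepest of the 9 members at 10m, with slopes of 1.10 ± 0.09 at 6m and 1.45 ± 0.13 at 10m. At 6m the controls ran from 8.513 to 12.45 CPM and Q175 from 26.66 to 37.57. In the 10m libraries controls ran from 4.139 to 9.651 CPM, Q111 from 14.31 to 20.79, Q140 from 18.76 to 27.23 and Q175 from 18.99 to 26.99. Q111 already lay above every control there, and Q140 and Q175 covered the same range, at 1.99 ± 0.12 and 1.98 ± 0.12 log2. Mir669c was also the member called in Q92 at 10m, by 0.56 ± 0.13 log2, where Q92 libraries ran from 6.971 to 11.21 CPM and 3 of 8 exceeded every control.

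Mir669o behaved unlike Mir669c. At 6m it ran from 1.625 to 6.739 CPM in controls and from 3.503 to 8.5 in Q175, and at 10m from 2.035 to 9.204 against 3.556 to 11.85. The groups overlapped at both ages, with 3 of 8 Q175 libraries above every control each time. Its slopes were 0.29 ± 0.11 and 0.45 ± 0.14, and in Q140 it differed by 0.12 ± 0.21 log2 at 6m.

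Mir466d ran from 0.897 to 3.761 CPM in controls at 6m and from 5.639 to 8.725 in Q175, without overlap. At 10m the controls reached 7.105 CPM and Q175 ran from 6.423 to 12.9, with 7 of 8 above every control. Its slopes were 1.02 ± 0.10 and 0.94 ± 0.12. Mir466g, the member with nearly whole counts, ran from 1.4 to 4.866 CPM in controls at 6m and from 2.771 to 6.696 in Q175, and from 0.922 to 4.416 against 3.111 to 8.166 at 10m. It exceeded every control in 2 of 8 Q175 libraries at 6m and 7 of 8 at 10m. The difference in Q175 was 0.77 ± 0.18 log2 at 6m and 1.03 ± 0.20 at 10m, and the slopes were 0.55 ± 0.11 and 0.72 ± 0.12.

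Outside the 9, Mir297a-4 had the highest mean slope of the fitted members, 1.93 ± 0.35 at 6m and 1.59 ± 0.36 at 10m. At 6m it ran from 0 to 1.819 CPM in controls with a median of 0, and from 0.478 to 3.603 in Q175, where 5 of 8 libraries exceeded every control. Mir297b, the other Mir297 hairpin with the most counts, averaged 3.69 counts and had slopes of 0.50 ± 0.38 and 0.80 ± 0.39. Mir466p had the lowest mean slope, -0.35 ± 0.56 at 6m and -1.42 ± 0.65 at 10m. It averaged 1.40 counts and had a control median of 0 CPM at both ages, so its direction rests on a handful of reads.

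**Figure D4:**
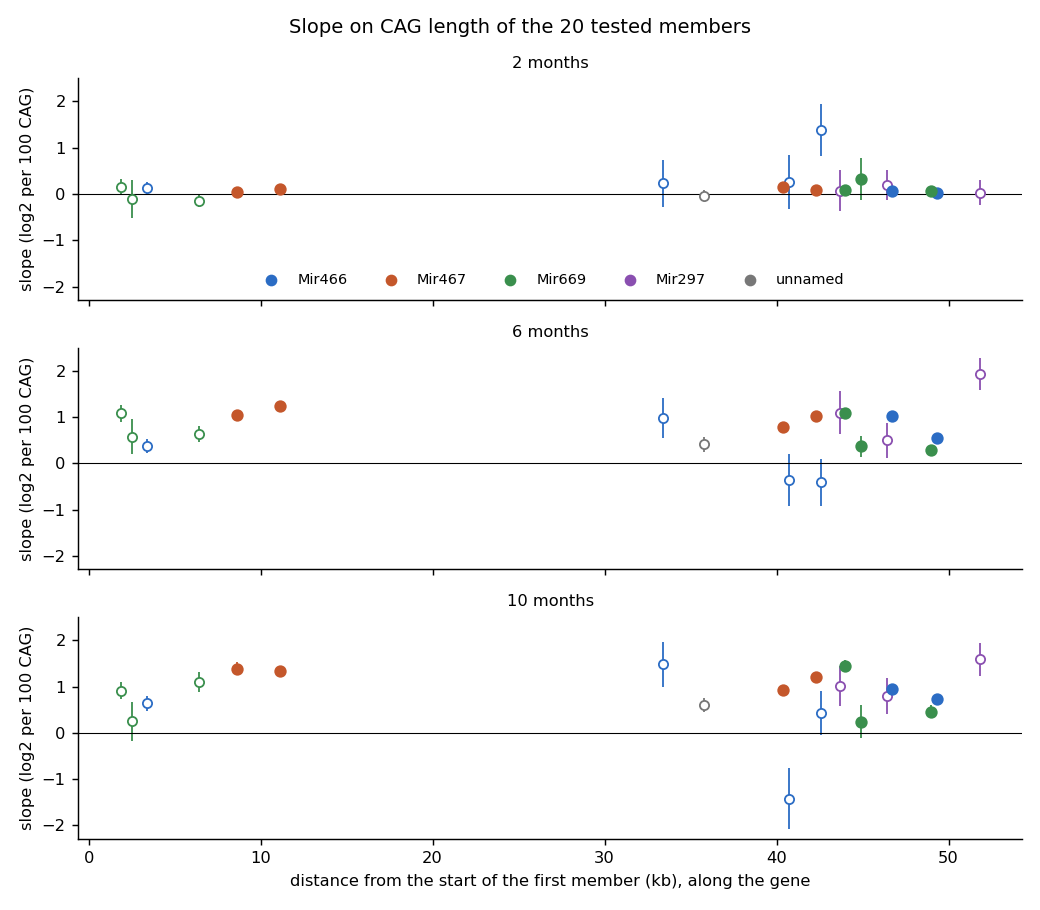
Slope on CAG length (log2 per 100 repeats, vertical axis, bars are SE) of each of the 20 fitted members against its distance from the first member (kb, horizontal axis) at 2, 6 and 10 months, coloured by family, filled where the mean count is at least 10 and open where it is lower. At 6m the filled points run from 0.29 to 1.23 and at 2m from 0.03 to 0.33, and members with high and low slopes sit at both ends of the row.

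High and low slopes lay side by side along the intron. The fitted members fell into one stretch up to 11.1 kb from the first member and another from 33.4 kb on. In the first stretch Mir467c at 8.6 kb and Mir467a-1 at 11.1 kb had slopes of 1.04 ± 0.12 and 1.23 ± 0.09 at 6m. In the second, Mir467e at 40.4 kb had 0.79 ± 0.09, Mir467d at 42.3 kb 1.03 ± 0.09 and Mir669c at 44 kb 1.10 ± 0.09. Beyond these, Mir466d at 46.7 kb had 1.02 ± 0.10, while Mir669o at 49 kb and Mir466g at 49.3 kb had 0.29 ± 0.11 and 0.55 ± 0.11. Over the 9 members the slope ran from 0.29 to 1.23 with a median of 1.02 at 6m and from 0.24 to 1.45 with a median of 0.94 at 10m.

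Counted over the 20 fitted members, 12 were called higher with CAG length at 6m and 14 at 10m, and 0 were called lower at either age (adjusted p under 0.05 in edgeR's quasi-likelihood F-test). Of all 477 tested microRNAs 13.2% were called higher at 6m and 12.4% at 10m. Among the 9 with a mean of at least 10 counts, 8 were called at each age, Mir669a-2 being the other one. The median slope over fitted members was 0.72 at 6m and 0.92 at 10m, beside 0.02 and 0.01 over all tested. These counts follow from how the stretch was chosen and are no evidence of their own.

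By line at 6m, 1 member was called higher in Q80 (background 3.98%) and 0 in Q92 (background 5.03%). The numbers were 4 for Q111 (background 2.94%), 10 for Q140 (background 15.3%) and 12 for Q175 (background 16.8%). For Q92, 3 members and 115 of all 477 tested microRNAs had an unadjusted p under 0.05 in edgeR, and 1 member was called by DESeq2. The member called in Q80 was Mir669a-2. By 10m, 0 were called in Q80 (background 0%) and 1 in Q92 (background 0.419%). There were 9 for Q111 (background 8.18%), 12 for Q140 (background 8.39%) and 13 for Q175 (background 10.9%). For Q80 at that age 1 member and 20 of all 477 tested microRNAs had an unadjusted p under 0.05 in edgeR, and 0 members were called by DESeq2. Against WT of the same line at 6m, 3 members were called higher in Q111 (2.1%), 10 in Q140 (8.6%) and 12 in Q175 (11.9%).

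Mir669a-2 could not be read on its own. In 182 libraries it held between 0.0152 and 12.22 counts and in 26 libraries between 31.23 and 84.94, with no library between. The 26 were spread over 12 groups, with 16 of 56 libraries at 2m, 7 of 96 at 6m and 3 of 56 at 10m. The table also held 11 features without a match in the annotation whose values were identical to one another and equalled that of Mir669a-2 to within 1% in 173 of the 208 libraries. In the 26 libraries with a high Mir669a-2 value, each of the 11 held at most 2.816 counts. The sum of the 12 features ran from 21.1 to 146.7 counts without such a gap, so in the 26 libraries the counts were placed on 1 feature and in most others they were spread over the 12.

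**Figure D5:**
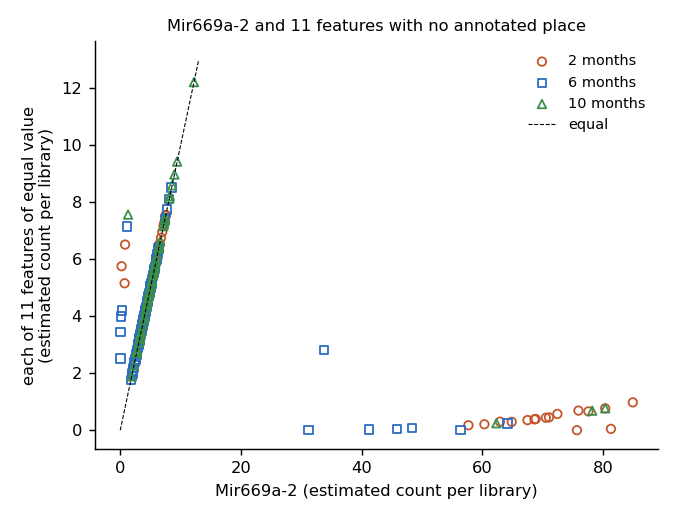
Estimated count of Mir669a-2 (horizontal axis) against that of each of the 11 unmatched features, which equal one another (vertical axis), 1 point per library, marked by age, with a line of equality. Most libraries lie on the line, 26 lie at 31.23 to 84.94 counts of Mir669a-2 with at most 2.816 on the other axis, and a few lie left of the line.

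Taken as 1 unit, the 12 features followed the other members. At 6m the sum ran up to 12.92 CPM in controls and from 14.16 to 23.61 in Q175, with 8 of 8 above every control. At 10m the controls reached 15.87 CPM and Q175 ran from 14.01 to 25.95, with 7 of 8 above. The slope of the sum was 0.49 ± 0.07 log2 per 100 repeats at 6m and 0.60 ± 0.09 at 10m, compared with 0.37 ± 0.23 and 0.24 ± 0.36 for Mir669a-2 alone. At 2m the sum had a slope of -0.05 ± 0.06 (edgeR adjusted p = 0.9514). Over the 6 WT groups at 6m it had an adjusted p of 0.09341 in edgeR, where Mir669a-2 alone had passed. Adding the 11 features to the cluster sum gave slopes of 0.82 at 6m and 0.97 at 10m, and leaving Mir669a-2 out of it gave 0.88 and 1.05. Gm25943 likewise had 2 unmatched features with equal values in 204 libraries, and among members Mir466b-5 and Mir466b-7 were identical in every library, as were Mir669p-1 and Mir669p-2.

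Beyond genotype, the measured correlation between members was weak. Over 204 libraries, with group means removed, Pearson's r between 8 members (Mir669a-2 left out) ran from -0.08 to 0.31 over 28 pairs with a median of 0.11. The median over pairs of 103 other microRNAs of 10 to 100 mean counts was 0.01. The highest values were 0.31 between Mir467d and Mir669c and 0.24 between Mir467a-1 and Mir669c, and such pairs share library and depth. The 8 members averaged 14.84 to 86.39 counts, and low counts limit such correlations. How far the members themselves vary together was therefore not settled.

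Outside the cluster, the microRNAs most like the cluster sum across the 149 libraries at 6m and 10m, centred within age, were Mir181d (Spearman's rho of 0.78), Mir181c (0.73), Mir1224 (0.68), Mir28a (0.66) and Mir448 (0.66). Their slopes were lower than the 0.88 and 1.03 of the cluster sum, 0.25 to 0.40 at 6m and 0.29 to 0.41 at 10m. These values describe likeness in level over the same libraries only.

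The family names did not carry the pattern beyond the intron as far as could be measured. The table held 10 features named Mir466, Mir467, Mir669 or Mir297 outside the stretch, 0 of them with a mean of 10 counts and all 10 together averaging 5.826 counts. Only Mir466q, whose sequence is printed above, had enough reads to be fitted. Its slopes were -0.21 ± 0.17 at 2m, -0.35 ± 0.24 at 6m and -0.51 ± 0.27 at 10m, none of which passed (edgeR adjusted p of 0.8164, 0.2888 and 0.1792). Summed over these family features outside the stretch, the level at 6m ran from 0.335 to 1.81 CPM in controls. The same sum ran from 0 to 1.19 CPM in Q175. The 9 other than Mir466q were too low to be fitted, and a difference in them was not detectable at this depth.

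Of the 8 genomic groups with at least 5 fitted microRNAs, the Sfmbt2 intron had 12 and 14 of 20 rising at 6m and 10m and 0 falling. Groups with rising and no falling members also included the one that starts with Gm22650 on chromosome X, with 4 of 6 rising at 6m and 3 at 10m, the Mir17 group on chromosome 14, with 3 of 6 and 2, and the Mir450b group on chromosome X, with 2 of 6 and 1. The large group that starts with Mir770 on chromosome 12 had 8 rising and 9 falling of 43 at 6m, and the group that starts with Mir344d-1 on chromosome 7 had 0 rising and 5 falling of 7. The group of Mir3071 on chromosome 12 had 1 rising and 2 falling of 5, and that of Mir500 on chromosome X 0 of either.

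Depth and the microRNAs of brain and of other tissues were set beside the rise in Q175. Median totals were 4587253 counts in Q175 and 4589140 in controls at 6m, and 4242777 and 4245649 at 10m. The other list held the 13 microRNAs of liver, of muscle, and of epithelium and olfactory bulb. They summed to between 319.6 and 750 CPM in controls and between 441.5 and 672.7 in Q175 at 6m. At 10m they summed to between 408.7 and 1685 CPM in controls and between 513.6 and 916 in Q175. The medians of this list were 459.3 CPM in controls and 575.5 in Q175 at 6m, and 705.5 and 681.4 at 10m. The 8 brain microRNAs had a lower summed median in Q175, in ranges that overlapped, with 54679 to 66560 CPM (median 57345) against 60197 to 73578 in controls (median 68414) at 6m. At 10m they summed to 57600 to 67014 CPM (median 61409) against 57709 to 72736 (median 67457). The part of either list in the rise was not tested. Of the 13 microRNAs of other tissues, 0 were called higher with CAG length at either age, and 1 was called lower at 6m and 2 at 10m. Within library tags, the slope of the cluster sum at 6m was 0.86 ± 0.11 in the 11 libraries tagged LB and 0.89 ± 0.08 in the 44 tagged V. At 10m it was 1.23 ± 0.15 in the 20 tagged L1, 0.90 ± 0.12 in the 24 tagged L4 and 0.84 ± 0.24 in the 7 tagged L5. At 2m it was -0.03 ± 0.10 in the 11 tagged L1, 0.09 ± 0.06 in the 10 tagged L7, 0.11 ± 0.05 in the 26 tagged L8 and 0.23 ± 0.12 in the 8 with other tags. The L5 set held only 1 library of a line past Q80, from Q111, and the 10m libraries with other tags were not fitted apart. At 2m the sign was not the same in every tag.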

How the data were processed

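Total RNA was extracted from striatum with the miRNeasy kit and small RNA was enriched. Per the study's methods the authors clipped 36-base strand-specific reads and aligned them to mm10 with STAR, and counted them with HTSeq. The submitters' processing notes name CASAVA 1.8.2. The table the authors deposited nevertheless holds expected counts with fractions, and the tool that divided reads is not given in the sources used here. Features were matched to GENCODE M21 on GRCm38 (1228 of 1626). Counts were rounded, filtered with filterByExpr by group (477 tested, 20 of them members) and fitted per age with edgeR 4.0.16 in R 4.3.3 (TMM, quasi-likelihood F-test, Benjamini-Hochberg adjustment over all tested). Sex and library tag were covariates, Q was numeric (WT set to 7), and levels are CPM with TMM factors. The meaning of the tag is not defined by the labels. Following the authors, every library with a connectivity Z.k under -5 within its age was left out. These were Q80 2m male 5 (-22.50), Q80 6m female 3 (-11.86), WT of the Q80 line 6m male 2 (-12.31) and WT 10m male 2 (-8.89). Sums replaced their members in the table, with library sizes and factors kept. Fits were tested on simulated data.

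The stretch, the members, the lists and the tests were chosen with earlier results of these data known. The members named are those with a mean of at least 10 counts, the 2 most abundant of each family, the highest and lowest mean slope, and those with a mean from 5 to 20 around the threshold; the non-members named are 5 with the highest Spearman's rho, and Mir466q, the other printed sequences and the other genomic groups were named after their values were seen. DESeq2 1.42.0, RLE and total count scaling, no filter, a mean of at least 50 counts, no tag, all libraries kept, WT only as controls, Q175 left out, sex by cage code, a replicate block, single tags and single libraries left out were the alternatives. The correlation used log2(CPM + 0.5). Mice are separate, so p-values measure spread between mice. By the cage codes in the labels, each expanded line at 2m and 10m was housed apart from the controls. Mice of the same line and sex nearly all shared a cage code at these ages. The p-values for lines and slopes there cannot separate line from cage. Q20 and its WT littermates shared cage codes, and the labels give no cage code at the remaining age. Reads carry no molecular identifiers, and counts cover counting error only.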

Additional observations from a re-analysis of the deposited data

Results flagged for a closer look

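In each group of 8 libraries the highest and lowest value of the cluster sum, the 4 family sums and the 9 members with a mean of at least 10 counts were compared with the others by Dixon's gap ratio. Of 364 such groups of values, 33 had a library far from the rest, where chance alone gives about 1 in 20. Values are CPM, followed by that of the nearest other library.

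For the cluster sum, WT 6m male 1 was low at 46.04 (58.85), Q80 10m male 1 was high at 61.74 (54.14) and WT 10m male 2, a library left out of the fits, was low at 18.98 (45.25). The same left-out library was low for the Mir467 sum at 8.255 (17.51), for Mir467e at 2.752 (4.689) and for Mir669c at 2.14 (4.803). WT 6m male 1 was also low for the Mir669 sum at 14.46 (19.98), and Q80 10m male 1 was high for Mir467a-1 at 17.12 (10.7). Among the family sums, Q20 10m female 2 was high for Mir466 at 18.3 (13.86), as it was for Mir466d at 7.105 (4.1). Q140 2m male 3 was high for Mir467 at 54.54 (45.85), and male 1 of the WT of the Q140 line was high for Mir669 at 31.25 (21.65). For Mir297, Q80 6m female 2 was low at 0.2613 (1.041), Q175 6m female 4 was high at 6.696 (4.487) and Q92 10m female 4 was high at 5.667 (3.041).

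Among members, Mir467c was high in Q140 6m female 2 at 5.798 (4.892) and low in Q175 10m female 3 at 2.961 (5.415). Mir467a-1 was low in Q20 6m male 2 at 6.939 (10.04) and in male 2 of the WT of the Q175 line at 6.955 (9.792). Mir467e was high in Q140 10m female 2 at 16.9 (11.92), and Mir467d was low in Q175 2m female 2 at 10.45 (14.18). Mir466d was low in Q92 6m female 3 at 1.044 (2.742), and Mir669o was high in Q111 6m female 1 at 7.524 (4.864). Mir466g was high in Q20 2m female 3 at 4.494 (3.014) and low in female 4 of the WT of the Q140 line at 0.9905 (2.405).

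Mir669a-2 accounted for 8 of the 33. It was high in Q80 2m female 3 at 13.72 (1.212), Q80 6m male 1 at 10.6 (1.037), male 4 of the WT of the Q92 line at 7.637 (1.064) and Q175 10m male 2 at 19.89 (2.162), which are libraries where its reads were not shared with the 11 equal-valued features. It was low in Q140 6m female 2 at 0.736 (1.078), Q175 6m male 4 at 0.2502 (1.18), WT 6m female 3 at 0.00437 (0.6538) and Q140 10m male 3 at 0.2528 (1.248).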

How the results depend on the processing

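At 6m and 10m the slopes of the cluster sum and of the 4 family sums stayed positive under every alternative run and stayed past the threshold except in the sets noted next. Over all alternatives the slope of the cluster sum at 6m ran from 0.67 (Q175 left out) to 0.96, and at 10m its range was 0.84 to 1.23. Within the 7 libraries tagged L5 at 10m no sum passed (cluster 0.84, Mir466 0.54, Mir467 1.17, Mir669 0.61, Mir297 1.08), and within tag LB at 6m the Mir297 sum of 0.71 did not. Leaving out 1 library at a time gave 0.86 to 0.90 and 1.01 to 1.08 for the cluster sum, with 10 to 13 and 13 to 15 members called. Members called with CAG length were 3 at both ages with a mean of at least 50 counts (fewer were tested), 7 within tag LB at 6m, and 9 and 0 within tags L4 and L5 at 10m. With DESeq2 the members called at 6m were 2 in Q80, 1 in Q92 and 1 in Q20 against WT or own WT. Total count scaling left 0 for Q92 at 10m, and the WT groups with the V tag alone gave 2. The added sums, chosen after seeing the data, kept every call.

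At 2m, where nothing passed, signs varied. Slopes turned negative within tag L1 for the cluster sum (-0.03), the Mir669 sum (-0.28), Mir669c (-0.11), Mir669a-2 (-1.65), Mir669o (-0.05) and Mir466g (-0.23). They did so within tag L7 for the sums of Mir466 (-0.03) and Mir467 (-0.01), Mir467c (-0.24), Mir467a-1 (-0.04) and Mir467d (-4.8e-05), within tag L8 for Mir669a-2 (-0.76) and Mir466d (-0.07), and within the other tags for Mir669o (-0.19). With WT only as controls Mir669a-2 gave -0.12, Mir669o -0.02 and the cluster sum -0.0035 in Q80 and -0.03 in Q92. Without the tag Mir669a-2 gave -0.08, and with Q175 left out Mir467c gave -0.05. Leaving out single libraries turned Mir466g (-0.01 to 0.07, including -0.0025) and Mir467c (-0.00031 to 0.07). The small difference of the cluster sum in Q80 became -0.03 without the tag at 6m and 0.01 with all libraries kept at 10m, and that of Q92 against its own WT became -0.01 without the tag. Mir669a-2 at 10m turned with Q175 left out (-0.66), within tags L4 (-0.58) and L5 (-0.81), and without Q175 male 2 (-0.25). Mir669o at 6m lost its call, from 0.29, without any of 8 single libraries (range 0.24 to 0.35) and at 10m without Q175 female 4 (0.37).

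Replicate numbers were shared between groups but did not pair the mice: the mean correlation of same-numbered libraries was 0.018, -0.009 and 0.047 at 2m, 6m and 10m. With the replicate block the cluster slope was 0.10, 0.88 and 1.05, Mir466g at 2m became -0.0032, the cluster sum in Q80 at 6m -0.02, and Mir669o at 6m lost its call at 0.28. An alternative with only members of whole counts was not run, since these held 0.0363% of the cluster's counts. With a mean of 410.9 counts in the cluster and 41 of 68 members under 1 count, low counts limit the precision of single members.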
